A study of Sus scrofa with 30 samples.

Results

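miR-221 and miR-222 were followed in the plasma of Göttingen minipigs (GMPs) through lethal total body irradiation (TBI). The deposited table lists 411 ssc-miRNAs, the porcine miRNAs of miRBase, and 3 of them, chosen by name because miR-221 or miR-222 directly follows the species prefix, are described: ssc-miR-221-3p, ssc-miR-221-5p and ssc-miR-222. The name of ssc-miR-222 gives no arm. In 24 libraries ssc-miR-221-3p and ssc-miR-222 were among the steadier plasma miRNAs, with levels that spanned 2.04-fold and 2.63-fold. The other arm of miR-221, ssc-miR-221-5p, spanned 31.2-fold, was already uneven before TBI and had a lower mean at Early than before TBI in all 3 animals, which in minipig 1 rests on a single library of low depth.

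Each miRNA hairpin can release a mature strand from its left arm (5p) and from its right arm (3p), and for miR-221 the 3p strand is the one usually described as active. A mature strand pairs with messenger RNAs mainly through its seed, the stretch from base 2 to base 8. miR-221 and miR-222 are a pair known to share their seed and to be made from neighbouring hairpins. They are known from endothelial cells and vascular smooth muscle and from blood progenitors, where the cell cycle inhibitor p27 (CDKN1B) and the stem cell factor receptor KIT are textbook targets. In the RefSeq annotation of Sscrofa11.1, MIR221 and MIR222 both lie on chromosome X with 0 annotated genes between them. The seed of miR-221-3p, copied from the study's supplementary tables and given in capitals because it is the part read by target sites, is the following.
miR-221-3p, bases 2 to 8: GCUACAU

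The animals were 3 male GMPs, 4 months old at the start, that received 2.2 Gy of cobalt gamma radiation. No unirradiated animals were included, so the draws before TBI served as the baseline. Peripheral blood was taken 7 days (C7) and 1 day (C1) before TBI, 6 h after it (0d), and then on 7 further days from 1d to 20d. All 3 GMPs were also given dextrose on days 1 and 8 as the controls of a countermeasure trial, so the later samples share this treatment. Blood was drawn under isoflurane, and for irradiation Telazol and xylazine were given as well. The study also describes oral ciprofloxacin and amoxicillin with clavulanate when neutrophil counts were low, without naming the days. The part of these treatments in the levels was not tested. Time points were then joined into phases. Here pre-TBI joins C7 and C1, Early joins the draws from 0d to 7d, Mid stands for 10d with 14d, Late is 17d alone, and Late Regression (LR) is 20d alone. These phases were taken by the submitters from a principal component analysis of the same libraries, so the grouping is not independent of the levels.

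Of 30 libraries, 24 were used, namely 6 pre-TBI, 10 Early, 4 Mid, 2 Late and 2 LR libraries. The 6 others, all from minipig 3 from 3d on, held 0 to 17 counts in all and 0 counts of any of the 3 miRNAs, so that Mid, Late and LR rest on 2 animals. Totals of the libraries used ran from 24341 to 550316 counts with a median of 240612, and were smaller at Mid (35762 to 103083) and Late (29159 and 63441) than at LR (401408 and 550316). Levels are given as CPM, the count relative to the library total, after TMM scaling by a factor per library that ran from 0.710 to 1.38. Libraries of 1 animal are repeated draws of the same circulation, not new animals, and the spread within a phase mixes animals and days. In plasma, a change in the cells that release an miRNA and a change in release per cell cannot be told apart. miRNAs known from red cells, platelets and other sources were present in the plasma libraries and are given with the lists further on.

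Before TBI, ssc-miR-221-3p was even across animals and days. It measured 295 CPM at C7 and 450.8 CPM at C1 in minipig 1, 384 and 329 CPM in minipig 2, and 290 and 332 CPM in minipig 3. The first of these values rests on 6 counts, whereas the other 5 libraries held 54 to 165 counts. After TBI the 10 Early libraries ran from 293 to 465 CPM with a median of 383 CPM, and 8 of them lay inside the pre-TBI range. At Mid minipig 1 had 499 CPM at 10d and 310 CPM at 14d, and minipig 2 had 467 and 307 CPM. At Late the animals split, with 285 CPM in minipig 1, on 6 counts, and 581 CPM in minipig 2, on 37 counts. At LR the values were 491 CPM in minipig 1 and 348 CPM in minipig 2. The mean log2 CPM was 8.45 ± 0.24 (SD, n = 6) before TBI. The Early mean was 8.60 ± 0.23 (n = 10), the Mid mean 8.62 ± 0.37 (n = 4), the Late mean 8.70 ± 0.71 (n = 2) and the LR mean 8.72 ± 0.34 (n = 2). In that order each phase overlapped its neighbour, and neighbouring means differed by less than the larger of their SDs.

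ssc-miR-222 started at the same height. It measured 295 CPM at C7 and 467 CPM at C1 in minipig 1, 392 and 329 CPM in minipig 2, and 268 and 392 CPM in minipig 3. The 10 Early libraries ran from 270 to 615 CPM with a median of 460 CPM, and 4 of them were above every pre-TBI library. At Mid the values were 452 CPM at 10d and 482 CPM at 14d in minipig 1, and 560 and 641 CPM in minipig 2. Both Late libraries, 522 CPM in minipig 1 and 707 CPM in minipig 2, and both LR libraries, 580 and 488 CPM, were higher than every pre-TBI library. The Late value of minipig 1 rests on 11 counts. On the log2 scale its pre-TBI mean was 8.49 ± 0.29 (SD, n = 6), its Early mean 8.81 ± 0.31 (n = 10), its Mid mean 9.07 ± 0.22 (n = 4), its Late mean 9.27 ± 0.30 (n = 2) and its LR mean 9.08 ± 0.17 (n = 2). From pre-TBI through Early, Mid and LR to Late, neighbours in the order of means again overlapped, and the step from pre-TBI to Early, 0.32, was the one that exceeded the larger SD, 0.31.

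ssc-miR-221-5p, the strand from the opposite arm of the miR-221 hairpin, was spread much more widely. Before TBI it measured 835 CPM at C7 and 150 CPM at C1 in minipig 1, 427 and 1834 CPM in minipig 2, and 2748 and 1834 CPM in minipig 3. Minipig 1 therefore went down and minipig 2 went up over the 6 days before any radiation, while minipig 3 was high on both days, on 1566 and 879 counts. The C7 value of minipig 1 rests on 17 counts and comes from the smallest library used.
Over the 4 Early draws, in order from 0d to 7d, minipig 1 had 201, 130, 110 and 347 CPM. Minipig 2 had 917, 218, 262 and 214 CPM in the same order. Minipig 3 had 323 CPM at 0d and 331 CPM at 1d, its last library in use. Of the 10 Early libraries 2 were below every pre-TBI library, and 3 of 6 pre-TBI libraries were above every Early one. The highest Early value, that of minipig 2 at 0d, was above the 3 remaining pre-TBI libraries.
At 10d both remaining animals were high again, with 1117 CPM in minipig 1 and 1913 CPM in minipig 2, and at 14d they had 214 and 413 CPM. At 17d minipig 1 had 2944 CPM, on 62 counts, and minipig 2 had 173 CPM, on 11 counts. At 20d the values were 667 CPM in minipig 1 and 94.3 CPM in minipig 2. The highest and the lowest value of this strand over the 24 libraries therefore came within 3 days of each other, in different animals.

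**Figure D1:**
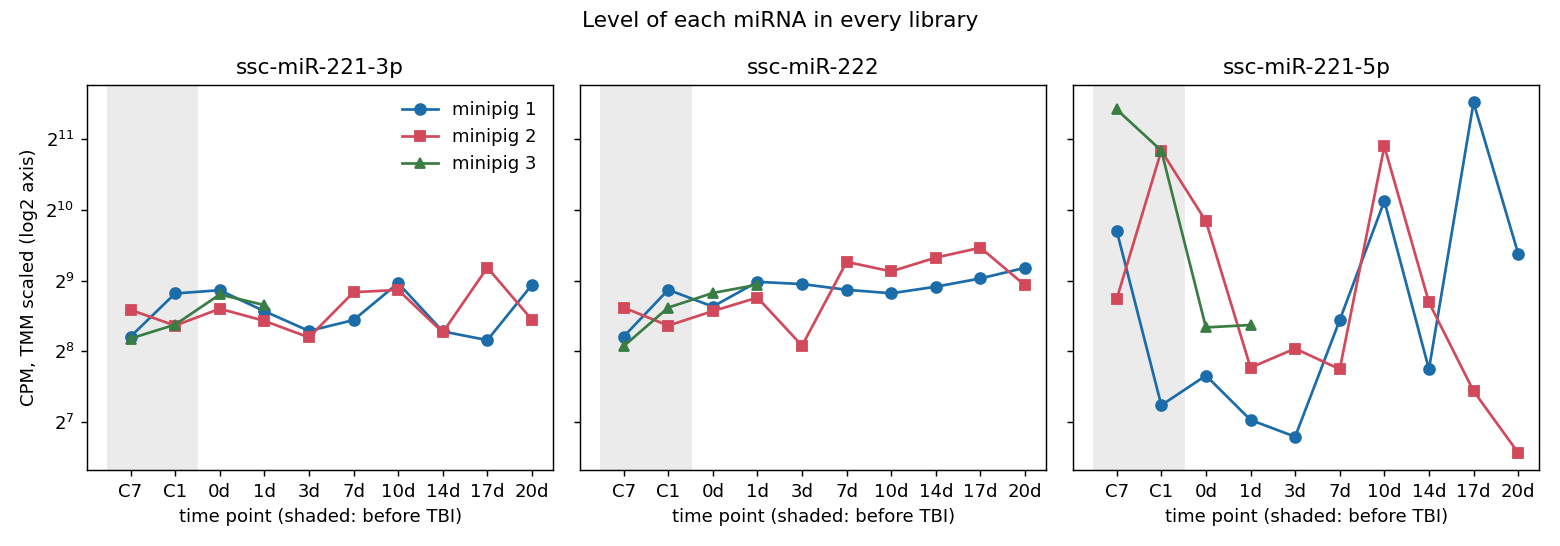
Level of each miRNA (TMM scaled CPM, log2 axis) against time point, with 1 point per library and 1 line per minipig. ssc-miR-221-3p and ssc-miR-222 stay between 268 and 707 CPM, whereas ssc-miR-221-5p runs from 94.3 to 2944 CPM, and minipig 3 ends at 1d.

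On the log2 scale the pre-TBI mean of ssc-miR-221-5p was 9.82 ± 1.56 (SD, n = 6), its Early mean 8.05 ± 0.83 (n = 10), its Mid mean 9.39 ± 1.40 (n = 4), its Late mean 9.51 ± 2.85 (n = 2) and its LR mean 8.03 ± 1.93 (n = 2). From LR through Early, Mid and Late to pre-TBI, every phase overlapped its neighbour and no step between neighbours exceeded the larger SD. By time point the order ran from 3d (7.48 ± 0.84, n = 2), the lowest, by way of 1d and 20d, then 7d and 14d, then 0d and 17d, and then C1 and C7 to 10d (10.52 ± 0.55, n = 2), and all 9 neighbouring pairs overlapped. For ssc-miR-222 the order ran from C7 (8.33 ± 0.28, n = 3) to 17d (9.27 ± 0.30, n = 2), again with 9 of 9 neighbouring pairs overlapping. For ssc-miR-221-3p it ran from 3d (8.28 ± 0.06, n = 2) to 10d (8.94 ± 0.07, n = 2), and 8 of 9 pairs overlapped, the exception being 0d and 10d.

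Whether the levels moved after TBI was tested with edgeR's quasi-likelihood test over all 411 ssc-miRNAs, with p values adjusted by the Benjamini-Hochberg method and a threshold of 0.05. This fit pooled the libraries of a phase and had no term for the animal. Minipig 3 had no library in use after 1d, so the mix of animals differs between phases. Fits with the minipig as a block are given as alternatives. The question is the one the study asked of all plasma miRNAs, namely which of them depart from the pre-TBI baseline and when. The study called them at an unadjusted p under 0.05, whereas the threshold here is on the adjusted p. It lists miR-221-5p as lower in every phase after TBI and marks it as also meeting an FDR cut-off of 0.05. The values below differ from that at Mid and Late. In the reported fit not 1 of the 3 had an adjusted p under the threshold in any of the comparisons made. Under other settings ssc-miR-221-5p passed at Early, as given below. At Early 0% of all ssc-miRNAs passed it (0 of 411 with edgeR's quasi-likelihood test, 29 with edgeR's likelihood ratio test, 33 with DESeq2), while 18.7% (77) had an unadjusted p under 0.05. At Mid 0% passed after adjustment, also with both other tools, and 5.35% before it. At Late 4.38% passed after adjustment and 22.6% before it. At LR 0% passed after adjustment, also with both other tools, and 5.6% before it. At each of these phases 1 of the 3 miRNAs had an unadjusted p under 0.05. At LR this was ssc-miR-222, whose unadjusted p was 0.0637 with the minipig as a block and was under 0.05 in 3 of 17 alternatives. Among these 3 is the fit with no filter, which equals the reported fit because all 411 ssc-miRNAs passed the filter.

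At Early the largest difference among the 3 was that of ssc-miR-221-5p. It was lower than pre-TBI by a log2 fold change of -2.10 (SE 0.60, unadjusted p = 0.00192, adjusted p = 0.0657, edgeR's quasi-likelihood test), which put it at rank 12 of 411 by p. The median log2 fold change of all ssc-miRNAs at Early was 0.02. The call depends on the tool and on the scaling: with DESeq2 the log2 fold change was -2.14 with an adjusted p of 0.00811, with edgeR's likelihood ratio test it was -2.10 with 0.0134, and over 17 alternatives the adjusted p ranged from 0.00811 to 0.539 and passed in 7. The unadjusted p passed in 16 of the 17. The exception was the fit without minipig 3, with a log2 fold change of -1.48 (unadjusted p = 0.0516, adjusted p = 0.539, edgeR's quasi-likelihood test). Without minipig 1 it was -2.31 (adjusted p = 0.0647) and without minipig 2 it was -2.66 (adjusted p = 0.0577) in the same test. With the minipig as a block it was -1.81 (adjusted p = 0.142, edgeR's quasi-likelihood test). Without the smallest library, minipig 1 at C7, the log2 fold change was -2.38 with an adjusted p of 0.0367.
Within each animal the mean of the Early libraries was under the animal's own pre-TBI mean, by a log2 difference of -0.97 in minipig 1, -1.42 in minipig 2 and -2.75 in minipig 3. In minipig 1 the direction rests on C7, since against C1 alone its Early mean was higher by 0.24. Of the 10 Early libraries, 2 in minipig 1, 3 in minipig 2 and 2 in minipig 3 were below both pre-TBI libraries of the same animal, and 0 were above both.

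In the later phases no difference of ssc-miR-221-5p from pre-TBI passed the threshold. The log2 fold change was -0.55 (SE 0.79, adjusted p = 0.970) at Mid, 0.19 (SE 0.99, adjusted p = 0.945) at Late and -1.80 (SE 1.08, adjusted p = 0.593) at LR in edgeR's quasi-likelihood test. With the minipig as a block it was -0.11 at Mid and 0.81 at Late. Minipig 1 and minipig 2 went apart at Late, with log2 differences of 3.02 and -2.31 from their own pre-TBI means, and at LR, with 0.89 and -3.13. The Late mean therefore stands for no animal, and without minipig 1 its log2 fold change was -3.39. The LR value likewise moved to -4.20 without minipig 1 (unadjusted p = 0.00604, adjusted p = 0.207, edgeR's quasi-likelihood test), was -1.29 without minipig 2 and -1.25 without minipig 3, and was -1.18 with the minipig as a block. Between successive phases the log2 fold change from Early to Mid was 1.55 (SE 0.68, unadjusted p = 0.0330, adjusted p = 0.174), and 0% of all ssc-miRNAs passed this comparison after adjustment (0 of 411, with 95 under an unadjusted p of 0.05). From Mid to Late, where 4.62% of all ssc-miRNAs passed, it was 0.75 (SE 1.05), and from Late to LR, where 0.73% passed, it was -1.99 (SE 1.25).

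For ssc-miR-222 every fitted difference from pre-TBI was above 0. The log2 fold change was 0.32 (SE 0.18, unadjusted p = 0.0830, adjusted p = 0.318) at Early, 0.57 (SE 0.22, unadjusted p = 0.0173, adjusted p = 0.808) at Mid, 0.79 (SE 0.28, unadjusted p = 0.0103, adjusted p = 0.118) at Late and 0.57 (SE 0.27, unadjusted p = 0.0436, adjusted p = 0.593) at LR in edgeR's quasi-likelihood test. By p it stood at rank 107, 7, 36 and 20 of 411 in these phases. The differences had the same sign in each animal: 0.31, 0.18 and 0.53 in minipigs 1, 2 and 3 at Early, 0.32 and 0.73 in minipigs 1 and 2 at Mid, 0.48 and 0.96 at Late, and 0.63 and 0.43 at LR, each against the animal's own pre-TBI mean on the log2 scale. Against C1 alone, without the C7 library with 6 counts, minipig 1 gave -0.011, -0.0033, 0.16 and 0.31 in these 4 phases, so the shared sign at Early and Mid rests on that library. Of 18 libraries after TBI, 17 were above the animal's own pre-TBI mean, 13 above both of its pre-TBI libraries and 11 above all 6 pre-TBI libraries, and the first of these counts was 14 without the C7 library of minipig 1. The adjusted p did not pass in any of the 17 alternatives at any phase. The sign held in all of them but the size did not: the log2 fold change ran from 0.19 to 0.41 at Early, from 0.41 to 0.76 at Mid, from 0.25 to 1.09 at Late and from 0.051 to 0.65 at LR. The lowest Late value was that without minipig 2, and the lowest LR value that with counts thinned to equal depth and the minipig as a block, where thinning alone gave 0.27. The Early value was 0.19 both without the smallest library and with C1 alone as the baseline.

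With all 24 libraries no phase difference of ssc-miR-221-3p from pre-TBI had an unadjusted p under 0.05. Its log2 fold change was 0.14 (SE 0.18, adjusted p = 0.665) at Early, 0.16 (SE 0.23, adjusted p = 0.970) at Mid, 0.37 (SE 0.30, adjusted p = 0.437) at Late and 0.26 (SE 0.27, adjusted p = 0.699) at LR in edgeR's quasi-likelihood test. Of 18 libraries after TBI, 10 were above and 8 below the animal's own pre-TBI mean, and 9 were on either side without the C7 library of minipig 1. At Late the sign differed between animals, with -0.35 in minipig 1 and 0.70 in minipig 2. Leaving out minipig 1 took the Late difference to 0.76 (unadjusted p = 0.0344, adjusted p = 0.275, edgeR's quasi-likelihood test), leaving out minipig 2 turned it to -0.57, and leaving out minipig 3 turned the Early difference to -0.00645.

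**Figure D2:**
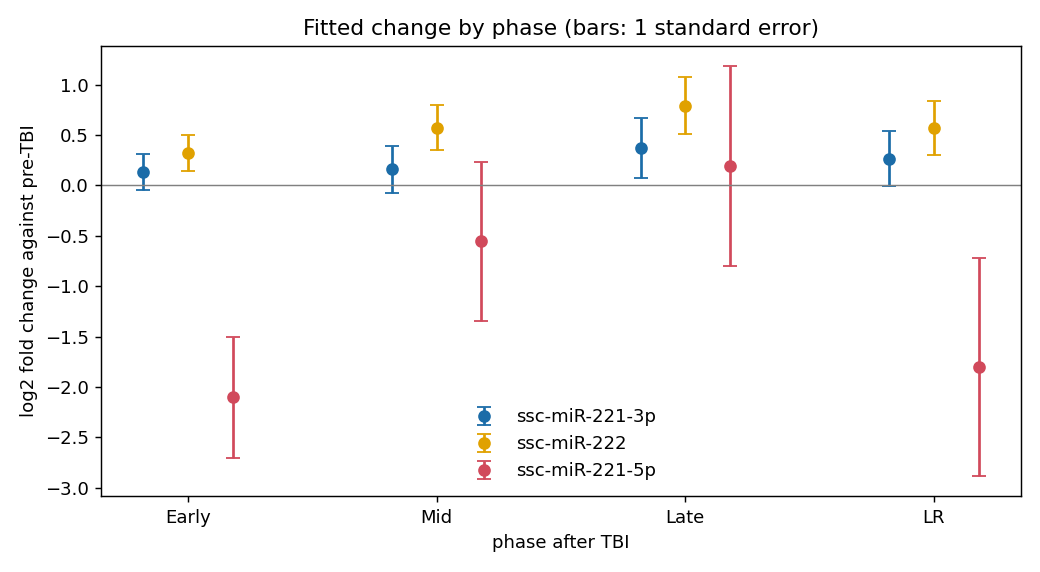
Fitted log2 fold change against pre-TBI (vertical axis) at each phase (horizontal axis) for the 3 miRNAs, with bars of 1 standard error. ssc-miR-221-5p lies lowest at Early (-2.10) and LR (-1.80), ssc-miR-222 lies above 0 at each phase (0.32 to 0.79), and no point passed the adjusted threshold.

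Single time points were compared with pre-TBI in a fit with 9 groups. The share of all ssc-miRNAs that passed after adjustment was 0% at each of 0d, 1d, 7d and 10d. It was 1.22% for 3d, 0.243% for 14d, 4.87% for 17d and 0.73% for 20d. For 0d, 1d, 7d and 10d, where the quasi-likelihood test called 0, an unadjusted p under 0.05 was reached by 35, 50, 34 and 30 ssc-miRNAs. None of the 3 miRNAs was among the calls at any time point.
For ssc-miR-221-5p the fitted log2 difference was -1.45 (SE 0.87) at 0d, -2.54 (SE 0.93, adjusted p = 0.232) at 1d, -2.82 (SE 1.13, adjusted p = 0.351) at 3d and -2.23 (SE 1.09) at 7d in edgeR's quasi-likelihood test. It was 0.20 (SE 0.94) at 10d and -2.07 (SE 1.09) at 14d, so that the 2 time points pooled as Mid differed from each other more than Mid did from pre-TBI. The 0d value of ssc-miR-221-5p depended on the animals used: it was -1.65, -2.59 and -0.68 without minipigs 1, 2 and 3. For ssc-miR-222 the fitted differences ran from 0.09 (SE 0.28) at 3d to 0.79 (SE 0.28, adjusted p = 0.120) at 17d, and were positive at each of the 8 time points. The sign at 0d turned with library size only (-0.11), without minipig 3 (-0.11) and without the smallest library (-0.050), and the sign at 3d turned without minipig 1 (-0.38). For ssc-miR-221-3p they ran from -0.21 (SE 0.26) at 3d to 0.47 (SE 0.27) at 10d.
The background of change without radiation was the comparison of C1 with C7, in which 0% of all ssc-miRNAs passed (0 of 411 with edgeR's quasi-likelihood test, with 3 under an unadjusted p of 0.05). The log2 difference of C1 from C7 was -0.09 (SE 0.96) for ssc-miR-221-5p, 0.30 (SE 0.29) for ssc-miR-222 and 0.18 (SE 0.27) for ssc-miR-221-3p. Without the smallest library, minipig 1 at C7, the same differences were -0.45, 0.18 and 0.051. The standard error for ssc-miR-221-5p was the largest of the 3. Its small difference joins opposite moves between C7 and C1. This strand fell from 835 to 150 CPM in minipig 1 and from 2748 to 1834 CPM in minipig 3. In minipig 2 it rose from 427 to 1834 CPM.

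The ratio of 2 miRNAs in the same library needs no scaling factor. ssc-miR-222 and ssc-miR-221-3p stayed close to 1 to 1: the ratio of their counts ran from 0.851 to 2.09 with a median of 1.19, and before TBI from 0.927 to 1.18. The SD of the log2 ratio over 24 libraries was 0.32, and counting error alone gives 0.32, although with each library weighted by its own counting error the chi-square per degree of freedom was 1.79. At Early it was higher than before TBI by 0.18 on the log2 scale (two-sided exact permutation of time labels within minipigs, p = 0.193), at Mid by 0.41 (p = 0.167, exact permutation), at Late by 0.52 and at LR by 0.33 (both p = 0.111, exact permutation, the smallest p that 9 arrangements allow).

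The ratio of the arms of miR-221 spanned a wider range. The ratio of ssc-miR-221-5p to ssc-miR-221-3p ran from 0.271 to 10.3 with a median of 0.948, and the 5p strand had more counts than the 3p strand in 11 of 24 libraries. The SD of the log2 ratio was 1.59. Counting error gives 0.32, but the libraries also differ in animal and day, and in 74 miRNAs with both arms in the table the median SD was 0.79. In minipig 3 the ratio was 9.49 at C7 and 5.53 at C1, and 0.724 at 0d and 0.822 at 1d. In minipig 2 it was 1.11 at C7 and 5.58 at C1, then 2.36, 0.632, 0.896 and 0.469 over the Early draws in order, 4.10 and 1.34 over the Mid draws, 0.297 at Late and 0.271 at LR. In minipig 1 it was 2.83 at C7 and 0.333 at C1, then 0.432, 0.343, 0.354 and 1.00 over the Early draws, 2.24 and 0.690 over the Mid draws, 10.3 at Late and 1.36 at LR. The 5p strand was thus the more abundant one in 5 of 6 libraries before TBI, 1 of 10 Early libraries, 3 of 4 Mid libraries, and 1 of 2 libraries of both Late and LR. In 1 Early library the strands had equal counts.

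The mean log2 ratio of the arms was 1.37 ± 1.79 (SD, n = 6) before TBI and -0.56 ± 0.84 (n = 10) at Early. The difference of -1.93 had p = 0.0193 in a two-sided exact permutation test within minipigs, and 0.116 after adjustment over the 12 ratio tests made, so it did not pass the threshold after adjustment. It was -1.23 without minipig 3 (exact permutation p = 0.116), -2.22 without minipig 2 (exact permutation p = 0.0889) and -2.32 without minipig 1 (exact permutation p = 0.0333). The unadjusted p thus stayed under 0.05 only without minipig 1. Leaving out an animal also leaves fewer arrangements, so a higher p alone does not show dependence on that animal. Against ssc-miR-222 the difference at Early was -2.11 (exact permutation p = 0.0141, adjusted p = 0.116). It was -2.43 without minipig 1 (exact permutation p = 0.0333), -2.44 without minipig 2 (exact permutation p = 0.0556) and -1.45 without minipig 3 (exact permutation p = 0.0844). These tests share ssc-miR-221-5p and the pre-TBI libraries. At Mid and later the permutation p of both ratios lay at 0.444 or above.

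**Figure D3:**
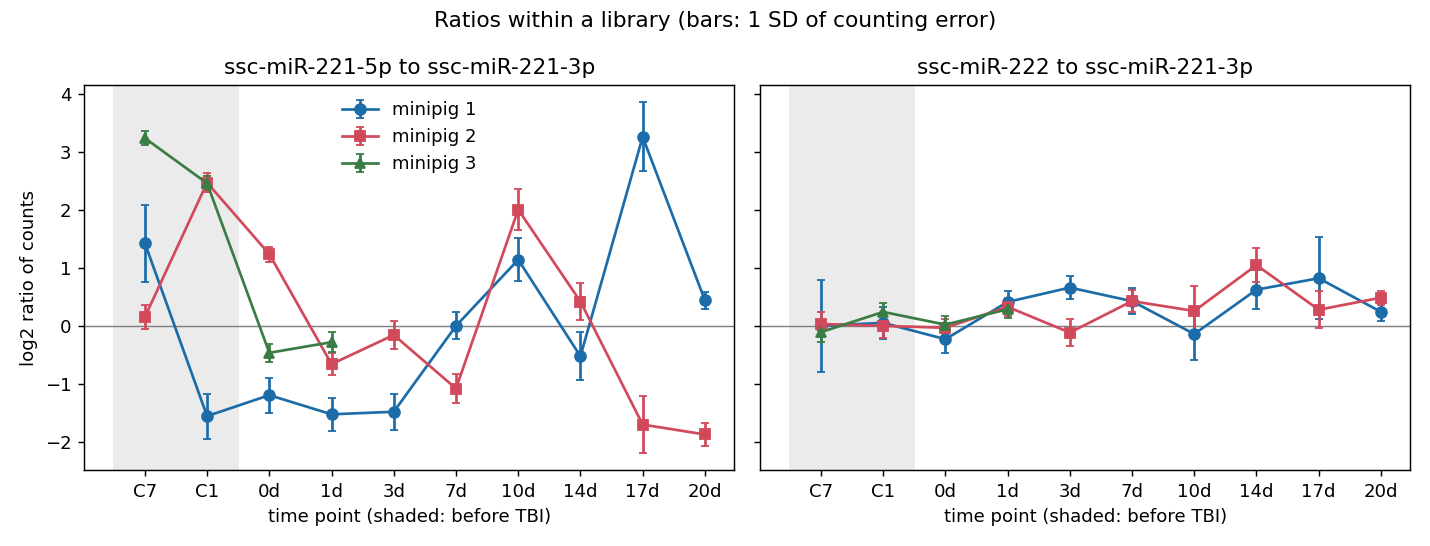
Log2 ratio of counts within each library (vertical axis) against time point, for ssc-miR-221-5p to ssc-miR-221-3p (left) and ssc-miR-222 to ssc-miR-221-3p (right), with bars of 1 SD of counting error and 1 line per minipig. The arm ratio crosses 0 in each minipig and runs from -1.88 to 3.27, whereas the right-hand ratio stays between -0.23 and 1.05.

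Set beside other miRNAs, the 3 lay toward opposite ends of the range of spread. Of 397 ssc-miRNAs with enough counts to rank, ssc-miR-221-3p was the 5th least variable (SD of log2 CPM 0.29) and ssc-miR-222 the 28th (SD 0.36), where the median SD was 0.68. ssc-miR-221-5p was at rank 372 (SD 1.495). With library size alone in place of TMM, an alternative chosen after seeing the data, the ranks were 10, 40 and 374. Their mean levels were close together and in the middle of the table, at rank 249 of 411 for ssc-miR-221-3p and 220 for ssc-miR-221-5p, with ssc-miR-222 next after the latter, so that mean level did not separate the steady from the variable ones. Levels had little relation to the total count of the library, with a Spearman rho over 24 libraries of 0 for ssc-miR-221-3p, -0.15 for ssc-miR-221-5p and -0.28 for ssc-miR-222.
Of 74 miRNAs with both arms in the table, miR-221 was 5th in the SD of the log2 ratio of its arms. miR-10a (SD 2.44), miR-202 (2.43), miR-490 (2.004) and miR-374a (1.97) were more variable, and the median was 0.79. A swing of this size between arms was therefore also seen in other miRNAs.

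**Figure D4:**
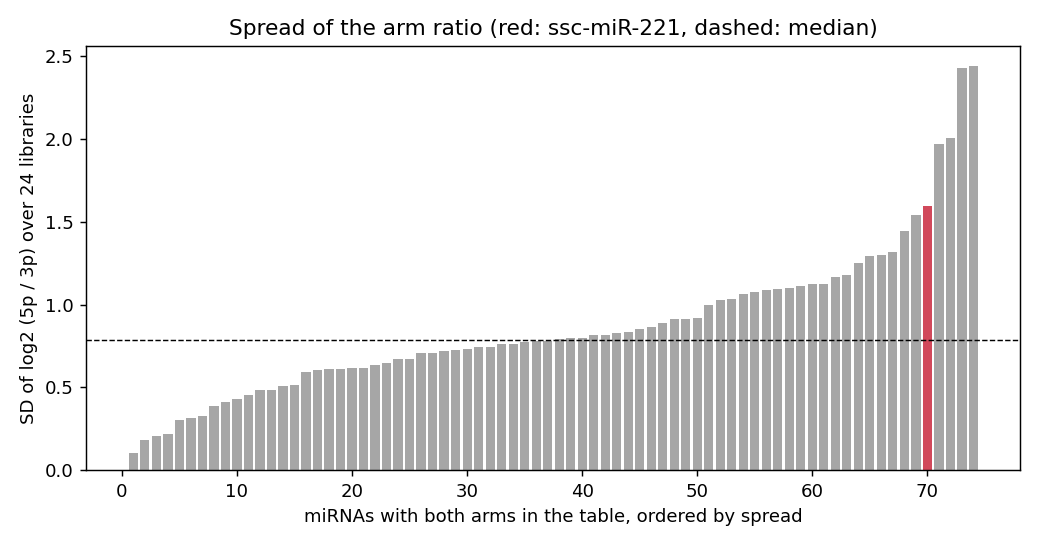
SD over 24 libraries of the log2 ratio of the 5p to the 3p arm (vertical axis), with 1 bar for each of 74 miRNAs that have both arms in the table, ordered by SD. miR-221, in red, is 5th from the top with an SD of 1.59, and the dashed line is the median of 0.79.

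The patterns of the 3 miRNAs over libraries were compared with those of all others by Spearman rho of log2 CPM, given as a description because libraries share animals, depth and scaling. Among the 3, rho was 0.39 between ssc-miR-222 and ssc-miR-221-3p, -0.22 between the arms of miR-221 and -0.32 between ssc-miR-221-5p and ssc-miR-222. With library size alone in place of TMM the same values were 0.49, -0.030 and -0.25, so the negative value between the arms depends on the scaling. Of 394 miRNAs compared, those with the pattern most like ssc-miR-221-5p were ssc-miR-9833-5p (rho 0.93), ssc-miR-455-3p (0.93), ssc-miR-9838-5p (0.89), ssc-miR-9787-3p (0.89) and ssc-miR-29b (0.87). In all, 15 miRNAs had a rho above 0.8 with it, whereas 0 did with ssc-miR-221-3p or ssc-miR-222. The latter varied little (SD of log2 CPM 0.29 and 0.36) and had as few as 6 counts in a library, so counting error limits their rho. At Early the fitted log2 differences of the 5 nearest to ssc-miR-221-5p lay between -1.45 for ssc-miR-455-3p (adjusted p = 0.0838, edgeR's quasi-likelihood test) and -2.38 for ssc-miR-9838-5p (adjusted p = 0.0549). None of the 5 passed. They were chosen for their likeness to ssc-miR-221-5p over the same libraries, so a like difference at Early follows from the choice.
ssc-miR-221-3p was nearest to ssc-miR-339-3p (rho 0.62), ssc-miR-1271 (0.61), ssc-miR-339 (0.58), ssc-miR-4334-3p (0.58) and ssc-miR-365-5p (0.57). These neighbours depend on the scaling, since with library size alone the same 5 stood at ranks 26 to 66 with rho between 0.34 and 0.45. ssc-miR-222 was nearest to ssc-miR-9785-5p (rho 0.63), ssc-miR-7143-5p (0.62), ssc-miR-187 (0.58), ssc-miR-2483 (0.57) and ssc-miR-9806-5p (0.56), which stood at ranks 2 to 20 with library size alone. The 5 nearest to ssc-miR-221-5p stood at ranks 1 to 12 there. No miRNA was among the 5 nearest of more than 1 of the 3. Of these 5 nearest to ssc-miR-222, ssc-miR-9806-5p passed at Late, with a log2 fold change of 1.06 (SE 0.30, adjusted p = 0.0476), where 4.38% of all ssc-miRNAs passed. With the pre-TBI and Late libraries alone, or with C7 alone as the baseline, 0 of 411 passed at Late.

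**Figure D5:**
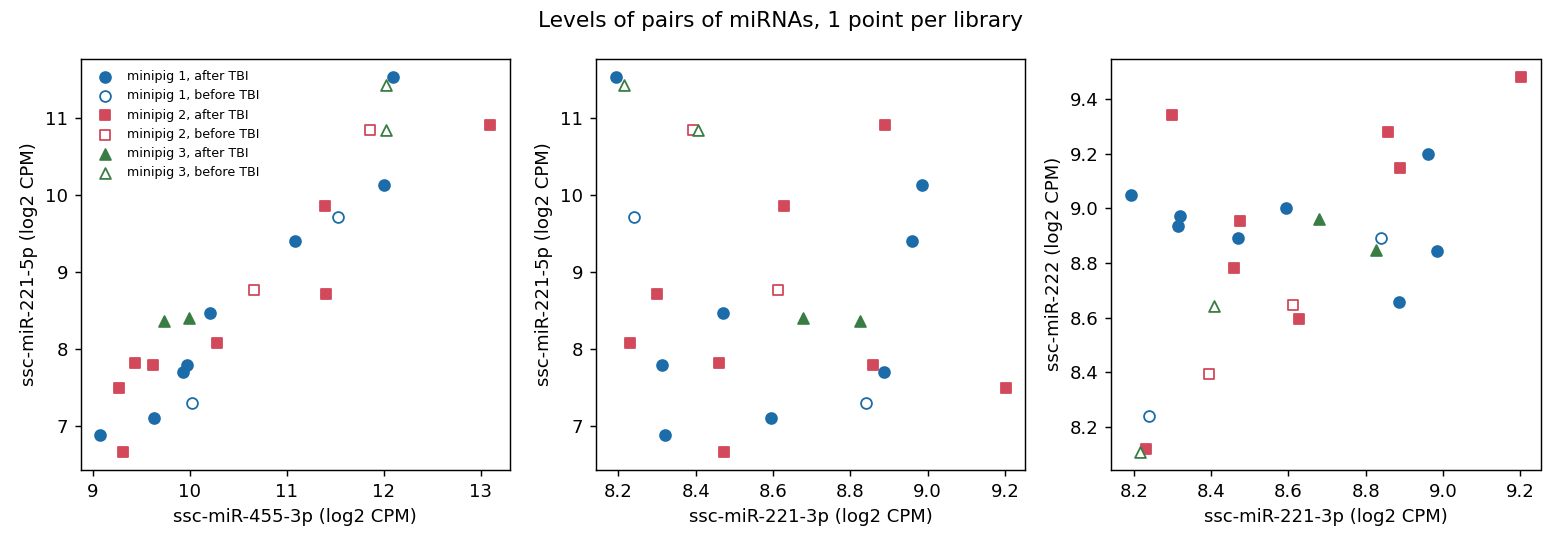
Log2 CPM of ssc-miR-221-5p against ssc-miR-455-3p (left) and against ssc-miR-221-3p (middle), and of ssc-miR-222 against ssc-miR-221-3p (right), with 1 point per library, colour and shape for the minipig and open symbols for libraries before TBI. The left panel follows a line (rho 0.93), and the others do not (rho -0.22 and 0.39).

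Lists of miRNAs known from the places where miR-221 and miR-222 are described, and from cells that can add RNA to plasma, were read in the same fit. The vessel wall list, of miRNAs known from endothelium and smooth muscle, had 19 rows in the table, 0 of which passed the adjusted threshold at any phase. At an unadjusted p under 0.05, 2 of its 19 rows were higher and 0 lower at Early, where 18.7% of all ssc-miRNAs were under it. At Mid 1 was higher and 0 lower (5.35% of all), at Late 3 were higher and 2 lower (22.6% of all), and at LR 2 were higher and 0 lower (5.6% of all). The median log2 fold change of the list was 0.24, 0.14, -0.020 and 0.38 in these phases, against 0.018, 0.052, 0.076 and -0.0078 for all ssc-miRNAs. The most abundant of its rows were ssc-miR-296-5p, ssc-miR-27a, ssc-miR-27b-3p and ssc-miR-296-3p. Of 11 rows known from blood cell differentiation, among them ssc-miR-146a-5p, ssc-miR-146b and ssc-miR-181a, 1 passed at Late (4.38% of all) and 3 were higher unadjusted there (22.6% of all in either direction). At Early and at Mid 1 was lower unadjusted, and at LR 0 were in either direction. The medians of the list from Early to LR were -0.095, -0.31, 1.43 and -0.20.
Of 5 rows known from red cells, such as ssc-miR-486, ssc-miR-16 and ssc-miR-451, 0 passed. Unadjusted, 2 were lower at Mid (5.35% of all in either direction) and 1 at Late (22.6% of all), with 0 at Early and LR, and the medians from Early to LR were 0.0075, -1.504, -1.65 and -0.85. Of 7 platelet rows, such as ssc-miR-191 and ssc-miR-126-5p, and of 6 liver and muscle rows, such as ssc-miR-122, 0 passed at any phase. Unadjusted, 2 of the 7 platelet rows were higher at Early (18.7% of all), 1 was higher and 1 lower at Late (22.6% of all) and 1 was higher at LR (5.6% of all), with 0 at Mid and medians of 0.50, -0.31, -0.096 and 0.27 from Early to LR. Of the 6 liver and muscle rows 1 was higher and 2 lower at Early (18.7% of all) and 2 were lower at LR (5.6% of all), with 0 at Mid and Late and medians of -0.20, 0.14, 0.12 and -0.48.
The vessel wall rows held a summed 1.57% to 3.15% of all counts before TBI and, from Early to LR, 1.95% to 4.21%, 1.27% to 3.11%, 0.888% to 2.24% and 2.84% to 4.32%. The summed share was 1.29% to 10.3% for red cell rows before TBI. In the Early libraries it was 0.977% to 8.34%, in the Mid libraries 0.983% to 3.17%, in the Late libraries 0.700% and 1.20%, and in the LR libraries 1.56% and 1.93%. Platelet rows held 0.970% to 2.31% before TBI and, phase by phase after it, 1.17% to 7.97%, 0.545% to 1.59%, 0.264% to 0.799% and 1.06% to 1.12%. Blood cell rows held 1.504% to 10.2% before TBI and, in the same order of phases, 0.888% to 4.03%, 1.02% to 11.1%, 13.2% to 15.3% and 2.76% to 3.10%. Liver and muscle rows stayed between 0.166% and 0.365% in all 24 libraries. The part that these sources had in the levels of miR-221 and miR-222 was not tested.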

How the data were processed

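Small RNA of minipig plasma was sequenced from TruSeq libraries. Reads were trimmed by the authors and mapped to pig genome ssc5 and to miRBase, and the deposited values are raw counts per ssc-miRNA, not normalized. The submitters' processing notes name cutadapt and Bowtie2 2.2.3.0. Reads were PCR copies without molecular identifiers, so counting errors cover counting only. Members and lists were chosen with earlier results of these data known.

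Libraries under 1000 counts were left out (6 of 30). Counts were tested in edgeR 4.0.16 (R 4.3.3) with TMM and a filter of CPM above 0.5 in 10% of libraries, passed by all 411 ssc-miRNAs. Log2 CPM used a prior count of 2, and log2 ratios added 0.5 to both counts. The text names the 3 miRNAs, the 5 nearest patterns of each among miRNAs with 5 counts in at least 20 libraries, and at most 4 abundant examples of a list. Each p describes the spread between libraries, which come repeatedly from the same 3 animals. The animals pair the libraries by design: deviations from phase means correlated by 0.169 over 78 pairs of the same minipig and by -0.102 over 130 of different ones. No libraries of 1 phase were duplicates (smallest chi-square per degree of freedom 21.8). The code was tested on simulated counts. Alternatives were other scalings, filters, tests (DESeq2 1.42.0), baselines, thinned counts, a minipig block and left-out animals. Levels, ratios and exact permutations were computed with scipy 1.17.1 (Python 3.11.15), and plots with matplotlib 3.10.9.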

Additional observations from a re-analysis of the deposited data

How the results depend on the processing

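Under 17 alternatives per phase, 1 of them (without the smallest library, minipig 1 at C7) chosen after seeing the data, ssc-miR-222 kept its sign against pre-TBI at all 4 phases and ssc-miR-221-5p kept it at Early and LR. The alternative with no filter equals the reported fit, because every ssc-miRNA passed the filter. At Early the log2 fold change of ssc-miR-221-5p passed the adjusted threshold with library size only (-2.35), DESeq2 size factors (-2.15), without the most abundant ssc-miR-4332 (-2.27), DESeq2 (-2.14), the likelihood ratio test (-2.10), only the 2 groups compared (-2.11) and without the smallest library (-2.38), and leaving out an animal gave -2.66 to -1.48 without passing. Calls at Early, 0 of 411 as reported, were 13, 12, 15, 33, 29, 38 and 27 in the same order, and 0 to 8 with 1 animal left out. Calls at Late, 18 as reported, were 10 with library size only, 0 with the 2 groups alone and with C7 only as baseline, 9 with thinned counts, 36 without the smallest library and 9 to 77 with 1 animal left out. Calls at LR were 0 to 6 with 1 animal left out.

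The minipig as a replicate block changed no adjusted call of the 3 miRNAs, while the unadjusted p of ssc-miR-222 at LR went from 0.0436 to 0.0637: ssc-miR-221-5p at Early had a log2 fold change of -1.81 (adjusted p = 0.142 in edgeR's quasi-likelihood test), and 17 ssc-miRNAs were called at Late. With thinned counts and the replicate block 7 were called at Late, ssc-miR-221-3p was 0.078 at 3d, and its difference from Early to Mid was -0.10.

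The sign turned in values that did not pass. ssc-miR-221-5p at Late was -0.46 with library size only, -0.16 without ssc-miR-4332, -0.00497 with the 2 groups alone, -0.23 with C7 only and -0.27 without the smallest library. At 17d it was -0.46, -0.00497 and -0.27 under the first, the third and the last of these, and at 10d -0.00956 with library size only. With library size only ssc-miR-222 was also -0.11 at 0d, -0.020 from Mid to Late and 0.022 from Late to LR, and ssc-miR-221-3p was 0.077 from Late to LR. With DESeq2 the difference of ssc-miR-221-3p from Early to Mid was -0.00212, and without the smallest library ssc-miR-222 at 0d was -0.050.
Leaving out 1 animal at a time gave the following ranges of the log2 difference for values whose sign turned. For ssc-miR-221-5p they were -1.17 to 0.18 at Mid, -3.39 to 0.72 at Late, -0.41 to 0.94 at 10d, -3.39 to 0.73 at 17d, -2.73 to 1.89 from Mid to Late and -0.98 to 0.70 from C7 to C1. For ssc-miR-221-3p they were -0.0064 to 0.16 at Early, -0.57 to 0.76 at Late, -0.56 to 0.76 at 17d, -0.018 to 0.13 from Early to Mid, -0.79 to 0.63 from Mid to Late, -0.68 to 0.91 from Late to LR and -0.065 to 0.33 from C7 to C1. For ssc-miR-222 they were -0.11 to 0.18 at 0d, -0.38 to 0.52 at 3d, -0.16 to 0.24 from Mid to Late and -0.47 to 0.28 from Late to LR. The log2 ratio of ssc-miR-221-5p to ssc-miR-221-3p ran from -1.08 to 0.14 at Mid and from -3.79 to 1.87 at Late, where it was 0.16 without minipig 3, and that to ssc-miR-222 from -4.03 to 1.09 at Late.
The causes of these changes were not tested. Depth limits the Late values, with 6 to 62 counts behind each, and the C7 values of minipig 1, with 6 to 17.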
